A study of Mus musculus with 15 samples.

Results

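The mitochondrial ribosome was followed at the level of its mRNAs in mouse quadriceps. All genes whose symbol starts with *Mrpl* or *Mrps* and a number were taken, which gave 77 of the 12529 genes in the expression table, 48 named for the large subunit and 29 for the small one. The 3 groups (Ex, mTg and control), all labelled C57BL/6, had 5 libraries each. Ex muscle came from wild-type C57BL/6J males of young adult age with free access to a running wheel for some weeks, and the muscle was taken a few hours after they last ran. The mTg muscle came from sedentary males carrying a *Pgc1a* transgene, which the muscle creatine kinase promoter drives constitutively. Control muscle came from sedentary wild-type males. The study's methods name both purchased males housed without a wheel and wild-type littermates of the transgenic mice, and which of these gave the control libraries is not told. No source used here gives an age for the mTg mice, and the labels do not say that each library came from a separate animal, so the p-values measure the spread between libraries.

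Mitochondria carry their own genome, and the few proteins it encodes are core subunits of the respiratory chain and ATP synthase. They are made by a dedicated ribosome inside the organelle. Its RNAs are mitochondrial, but all of its proteins are encoded in the nucleus, translated in the cytosol and imported, so that the large subunit, where peptide bonds form, and the small subunit, where the mRNA is decoded, depend on nuclear transcription. Part of the proteins descend from the bacterial ribosome and the rest were added in the mitochondrial lineage. PGC1α, the product of *Ppargc1a* (*Pgc1a*), is a transcriptional coactivator known for driving mitochondrial biogenesis in muscle, working with estrogen-related receptors (ERRs) and nuclear respiratory factors (NRF1, and NRF2 of the ETS family).

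Names and structures part ways for 3 members. In structures of the mammalian mitoribosome the proteins of *Mrps30* and *Mrps18a* sit in the large subunit, and *Mrps36* encodes a component of the 2-oxoglutarate dehydrogenase complex. By structure the table therefore held 50 large-subunit genes, 26 small-subunit genes and *Mrps36*. Of the 76 genes of the 2 subunits, 46 were classed in the bacterial lineage and 30 in the mitochondrial one. *Mrps18a* and *Mrps18b* were classed as mitochondrial and *Mrps18c* as bacterial, although they share a name. Lineage below means this class, and descent was not tested.

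Members lay on 17 chromosomes, with at most 10 on any of them (chromosome 11). The RefSeq table of promoters (GRCm38.p6, which is mm10) held windows from 250 bases before to 50 bases after the start site for 68 of the 77 members. The short cores of 4 factors with a place in mitochondrial biogenesis were searched on both strands, namely GCATGCG for NRF1, AAGGTCA for the ERRs, CCGGAAG for ETS factors and AAGATGG for YY1. The ETS core stood in 25 of 68 members (36.8%) and in 20.3% of 8915 tested genes with a window. The YY1 core stood in 13 members (19.1%) against 8.65% of tested genes, the NRF1 core in 8 (11.8%) against 7.35%, and the ERR core in 4 (5.88%) against 3.88%. Over all 27025 genes of the promoter table the shares were 9.93% for ETS, 7.28% for YY1, 4.01% for NRF1 and 5.38% for the ERRs. Such a match is a description of the letters only.

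The promoter windows of 4 members are printed, each from its gene strand, because they span the range of change described below. *Mrpl14* and *Mrpl12* were among the members that differed most between mTg and control, *Mrpl3* was one of the few called in both comparisons with control, and *Mrpl33* was among the 3 members nearest to no difference in mTg. Capitals mark a core on either strand. The windows are chr17:45686099-45686398, chr11:120484387-120484686, chr9:105053018-105053317 and chr5:31613701-31614000, all on the plus strand. *Mrpl14* held none of the cores, *Mrpl12* held the ERR core downstream of its start site, *Mrpl3* the ETS core, and *Mrpl33* an NRF1 core followed by an ETS core.
Mrpl14: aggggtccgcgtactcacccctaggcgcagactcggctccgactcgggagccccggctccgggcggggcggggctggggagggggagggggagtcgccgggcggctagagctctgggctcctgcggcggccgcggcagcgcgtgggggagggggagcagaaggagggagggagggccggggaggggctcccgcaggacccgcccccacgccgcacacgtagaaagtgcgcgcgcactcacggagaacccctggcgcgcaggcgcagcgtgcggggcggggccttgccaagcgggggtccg
Mrpl12: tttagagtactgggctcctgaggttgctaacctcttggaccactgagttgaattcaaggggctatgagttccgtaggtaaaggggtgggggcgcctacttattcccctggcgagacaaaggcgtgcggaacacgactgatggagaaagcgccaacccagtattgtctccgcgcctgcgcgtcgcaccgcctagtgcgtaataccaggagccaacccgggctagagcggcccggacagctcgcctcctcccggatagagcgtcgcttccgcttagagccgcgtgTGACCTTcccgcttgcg
Mrpl3: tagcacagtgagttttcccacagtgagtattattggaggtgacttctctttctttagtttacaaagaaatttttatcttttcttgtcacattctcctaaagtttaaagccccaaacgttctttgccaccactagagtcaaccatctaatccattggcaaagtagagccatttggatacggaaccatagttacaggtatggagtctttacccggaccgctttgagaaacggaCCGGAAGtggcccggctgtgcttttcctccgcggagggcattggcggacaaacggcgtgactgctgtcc
Mrpl33: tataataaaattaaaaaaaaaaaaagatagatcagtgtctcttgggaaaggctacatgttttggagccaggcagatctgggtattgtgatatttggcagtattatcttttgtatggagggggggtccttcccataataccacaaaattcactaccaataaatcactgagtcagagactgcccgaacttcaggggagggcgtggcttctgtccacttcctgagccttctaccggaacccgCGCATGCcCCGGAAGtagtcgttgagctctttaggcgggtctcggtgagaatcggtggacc

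*Ppargc1a* was read first, as the check of the transgene. It had 50.1, 56.8, 52.1, 53.8 and 56.4 FPKM (fragments per kilobase of transcript, scaled to library depth) in mTg, against 5.45, 6.46, 12.5, 8.01 and 5.06 FPKM in control, a difference of 2.75 ± 0.17 (SE) in log2(FPKM + 1) with an adjusted p of 5.59e-08 by limma, adjusted by Benjamini-Hochberg over 11674 genes as for every adjusted p given here. Ex libraries had 6.39, 4.87, 6.07, 7.34 and 6.87 FPKM. They overlapped the controls (log2 difference -0.16 ± 0.19, adjusted p = 0.622). Between 11475817 and 16917490 reads per library could be recovered, of which a member took 73 to 4523 (median 600). Skeletal muscle markers (*Ckm*, *Acta1*, *Myh4*, *Myh1* and *Tnnt3*) summed to 62340 to 69540 FPKM in Ex, 51450 to 61500 FPKM in mTg and 70210 to 78190 FPKM in control. Of these 5 markers, 1 was called higher and 3 lower in Ex, and 1 higher and 4 lower in mTg. *Myh4* and *Myh1* mark particular fiber types. The paper describes fewer glycolytic fibers in gastrocnemius of exercised and of transgenic mice. The lower sums cannot tell less muscle from a change of fiber type, which was not tested. All 4 endothelial markers (*Pecam1*, *Cdh5*, *Tie1* and *Esam*) were called higher in both groups, summing to 110.3 to 130.2 FPKM in Ex, 118.3 to 168.5 FPKM in mTg and 86.0 to 99.3 FPKM in control. From qPCR of cell type markers, vascular ones among them, the paper reports an unchanged cell composition in exercised quadriceps. For transgenic quadriceps it reports more *Cd31* (*Pecam1*). Satellite cell markers (*Pax7* and *Myf5*) summed to 1.099 to 1.364 FPKM in Ex, 0.442 to 0.750 FPKM in mTg and 1.22 to 1.66 FPKM in control. Of these 2 low markers, 1 was called lower in mTg. Of 4 Schwann cell markers 3 were called lower in mTg, summing to 46.1 to 52.1 FPKM in Ex, 31.4 to 53.8 FPKM in mTg and 51.4 to 64.0 FPKM in control. *Alas2*, the only listed erythroid marker in the table, was called higher in mTg, with 1.03 to 1.51 FPKM in Ex, 1.46 to 5.19 FPKM in mTg and 0.979 to 1.92 FPKM in control. Of 4 markers each, 2 fibroblast markers were higher and 1 lower in mTg, 1 macrophage marker was higher in mTg, and 1 adipocyte marker was lower in Ex. The sums of these last 3 lists overlapped between both groups and control. In bulk muscle, fewer cells of a type and less RNA per cell cannot be told apart.

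In control quadriceps the members were spread over a wide range of levels, from 4.31 to 285 FPKM with a median of 28.9 FPKM. *Mrpl42*, a large-subunit protein of the mitochondrial lineage, was highest with 295, 279, 269, 295 and 287 FPKM, and its control libraries did not reach down to those of any other member. *Mrpl30* followed with 136 ± 7.90 FPKM (SD, n = 5), then *Mrps21* with 117 ± 9.29, *Mrpl12* with 113 ± 9.08 and *Mrpl33* with 104 ± 7.77 FPKM. The SDs of *Mrps21*, *Mrpl12* and *Mrpl33* overlapped, so their order is not settled. The 5 most abundant members made up 24.99% of the summed level. At the low end stood *Mrps25* with 4.31 ± 0.201, *Mrpl19* with 4.59 ± 0.223 and *Mrpl17* with 6.56 ± 0.854 FPKM. The median large-subunit gene was at 30.8 FPKM and the median small-subunit gene at 23.4 FPKM, both read per length. Each gene's control libraries varied little, with coefficients of variation from 2.70% to 19.6% and a median of 7.23%.

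The mTg muscle was compared with control to see what sustained *Pgc1a* expression does to these mRNAs. Most of them rose. By limma, 64 of 77 members were higher in mTg at an adjusted p under 0.05 (83.1%, against 22.3% of all 11674 tested genes) and none was lower (against 23.1% of all), with no member lower at an unadjusted p under 0.05 or by limma voom either. The median member differed by 0.53 in log2(FPKM + 1), or 1.44-fold, where the median tested gene differed by -0.02. In 54 members every mTg library lay above every control library, which held for 16.3% of tested genes. The called differences ran from 0.24 to 1.27, so that 7 members were more than 2-fold higher, 27 between 1.5-fold and 2-fold, and 30 less than 1.5-fold. Summed over the members, the level was 4711, 4161, 4977, 4187 and 4402 FPKM in mTg, against 3006, 2823, 2886, 3095 and 3291 FPKM in control. The 2 groups did not overlap, and members took 0.498% ± 0.034 of the reads in mTg and 0.306% ± 0.014 in control (SD, n = 5 each). Endothelial, Schwann cell and erythroid markers, and some satellite cell, fibroblast and macrophage markers, differed between mTg and control as given above. The fibroblast markers did so in both directions. The sum of the muscle markers was lower in mTg, with 1 of them called higher. The part of all these markers in the differences was not tested.

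**Figure D1:**
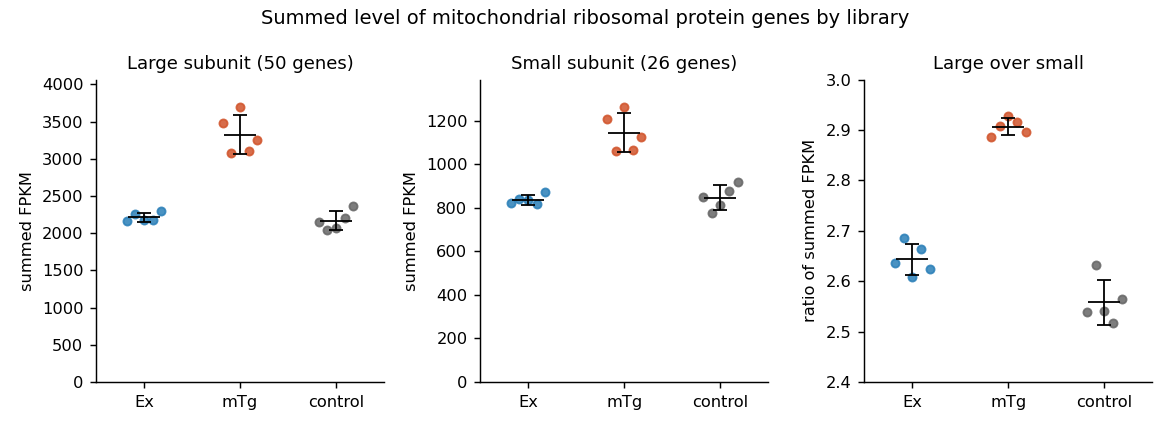
Summed FPKM of the 50 large-subunit and 26 small-subunit genes (by structure) and the ratio of the 2 sums, with 1 point per library, in Ex, mTg and control. Horizontal marks are means and bars SDs (n = 5 each), and the ratio axis starts at 2.4. All mTg points lie above all control points in each panel, while Ex and control overlap.

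Of the 7 members that were more than 2-fold higher in mTg, 6 belonged to the large subunit. *Mrpl14* (chr17:45686322-45698495), the counterpart of bacterial L14 at the face that meets the small subunit, had 190.4, 149, 189, 165 and 181 FPKM in mTg, against 71.5, 67.4, 65.2, 67.8 and 88.2 FPKM in control (1.27 ± 0.09 (SE), 2.42-fold, adjusted p = 2.01e-07). The lowest mTg library was far above the highest control library, control replicate 5. *Mrpl34* (chr8:71464959-71465747), a small basic protein of bacterial descent, had 86.6, 72.6, 95.7, 69.6 and 75.6 FPKM in mTg, against 34.4, 31.2, 30.2, 35.5 and 40.01 FPKM in control (1.20 ± 0.10 (SE), 2.29-fold, adjusted p = 5.43e-07). *Mrpl45* (chr11:97315716-97329920), which in the human ribosome contacts the inner membrane near the exit of the peptide tunnel, had 66.5, 63.7, 69.01, 64.03 and 63.8 FPKM in mTg, against 27.7, 27.6, 27.6, 27.8 and 30.2 FPKM in control (1.19 ± 0.05 (SE), 2.27-fold, adjusted p = 3.99e-09). Its mTg libraries were close together and stood clear of all controls. *Mrpl12* (chr11:120484613-120489065), the L7/L12 stalk protein that recruits translation factors, had 302, 208, 291, 246 and 234 FPKM in mTg, against 113, 103, 109, 112 and 127 FPKM in control (1.17 ± 0.10 (SE), 2.24-fold, adjusted p = 8.12e-07). The mTg spread was the wider one here, yet no library reached the control range. *Mrpl47* (chr3:32725397-32737605), a large-subunit protein of the L29 family near the tunnel exit, had 48.4, 45.9, 44.8, 36.6 and 41.2 FPKM in mTg, against 18.6, 17.4, 20.6, 18.7 and 19.4 FPKM in control (1.15 ± 0.08 (SE), 2.22-fold, adjusted p = 9.94e-08). *Mrpl19* (chr6:81957851-81965958), an L19 protein at the subunit interface, had 12.7, 11.9, 11.3, 10.2 and 10.3 FPKM in mTg, against 4.92, 4.44, 4.69, 4.54 and 4.35 FPKM in control (1.13 ± 0.07 (SE), 2.19-fold, adjusted p = 5.33e-08). It was among the 3 lowest members over all libraries, and its groups did not overlap. Coordinates are mm10 gene models of GENCODE M21.

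*Mrps35* was the only small-subunit member among the 7 with more than a 2-fold difference. It encodes a protein of the mitochondrial lineage in the head of the small subunit, and had 40.3, 34.6, 36.3, 30.1 and 33.7 FPKM in mTg, against 15.4, 14.8, 14.2, 15.3 and 15.7 FPKM in control (1.16 ± 0.07 (SE), 2.23-fold, adjusted p = 6.14e-08). The control libraries lay within a narrow band and every mTg library was above it. Of the remaining members with the 10 largest differences, *Mrpl37* averaged 110.4 ± 7.82 FPKM in mTg and 56.9 ± 4.55 FPKM in control (SD, n = 5 each). *Mrpl46*, a protein of the central protuberance, averaged 42.2 ± 2.70 FPKM in mTg and 21.9 ± 0.884 FPKM in control. *Mrps36*, which is not part of the ribosome, had 14.7, 15.2, 21.2, 15.2 and 22.5 FPKM in mTg, against 8.14, 8.58, 6.67, 9.11 and 11.4 FPKM in control (0.93 ± 0.14 (SE), adjusted p = 1.38e-04), with as few as 73 reads in a library. The 2 genes named for the small subunit but built into the large one also rose. *Mrps30* averaged 29.2 ± 2.70 FPKM in mTg and 18.2 ± 0.925 FPKM in control (adjusted p = 7.11e-06), and *Mrps18a* 91.4 ± 10.1 FPKM in mTg and 64.6 ± 4.76 FPKM in control (adjusted p = 3.06e-04).

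Of the 5 most abundant members, 3 rose by less than 1.5-fold. *Mrpl42* had 409, 427, 489.9, 369 and 444 FPKM in mTg, against 285 FPKM on average in control (1.49-fold, adjusted p = 3.58e-05). *Mrpl30* averaged 197 ± 17.3 FPKM in mTg and 136 ± 7.90 FPKM in control (1.45-fold), and *Mrps21* 148 ± 8.71 FPKM in mTg and 117 ± 9.29 FPKM in control (1.26-fold). Across the 77 members, the control level and the log2 difference in mTg were hardly related (Spearman's rho -0.11, given as a description over genes that share the same libraries).

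Not every subunit gene was called. The 13 members that did not pass the test had log2 differences between -0.16 and 0.22, and 3 of them were negative (*Mrps12*, *Mrpl22* and *Mrpl52*). *Mrps12*, whose bacterial counterpart S12 monitors decoding, had 41.5, 29.05, 51.4, 40.6 and 39.6 FPKM in mTg, against 40.3, 36.9, 37.1, 41.7 and 48.6 FPKM in control (-0.03 ± 0.12 (SE), adjusted p = 0.848). Both groups covered much the same span. *Mrpl33*, a small protein of bacterial descent, had 113, 105, 117, 109 and 90.3 FPKM in mTg, against 96.7, 95.9, 104, 113 and 109.7 FPKM in control (0.04 ± 0.08 (SE), adjusted p = 0.736). *Mrps10* had 22.2, 19.5, 19.8, 16.7 and 19.7 FPKM in mTg, against 18.4, 16.9, 20.005, 20.9 and 19.4 FPKM in control (0.03 ± 0.08 (SE)). *Mrpl17* averaged 7.43 ± 0.617 FPKM in mTg and 6.56 ± 0.854 FPKM in control (adjusted p = 0.135). The other members not called were *Mrps14*, *Mrps15*, *Mrps28*, *Mrpl23*, *Mrpl27*, *Mrpl54* and *Mrpl57*. Among them, *Mrps14* and *Mrps15* were higher at an unadjusted p of 0.032 and 0.036 by limma. Both were called higher with all 15 libraries in 1 fit, and after each library was scaled to a constant sum. Of these 13, 10 were of bacterial lineage and 3 of mitochondrial lineage.

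**Figure D2:**
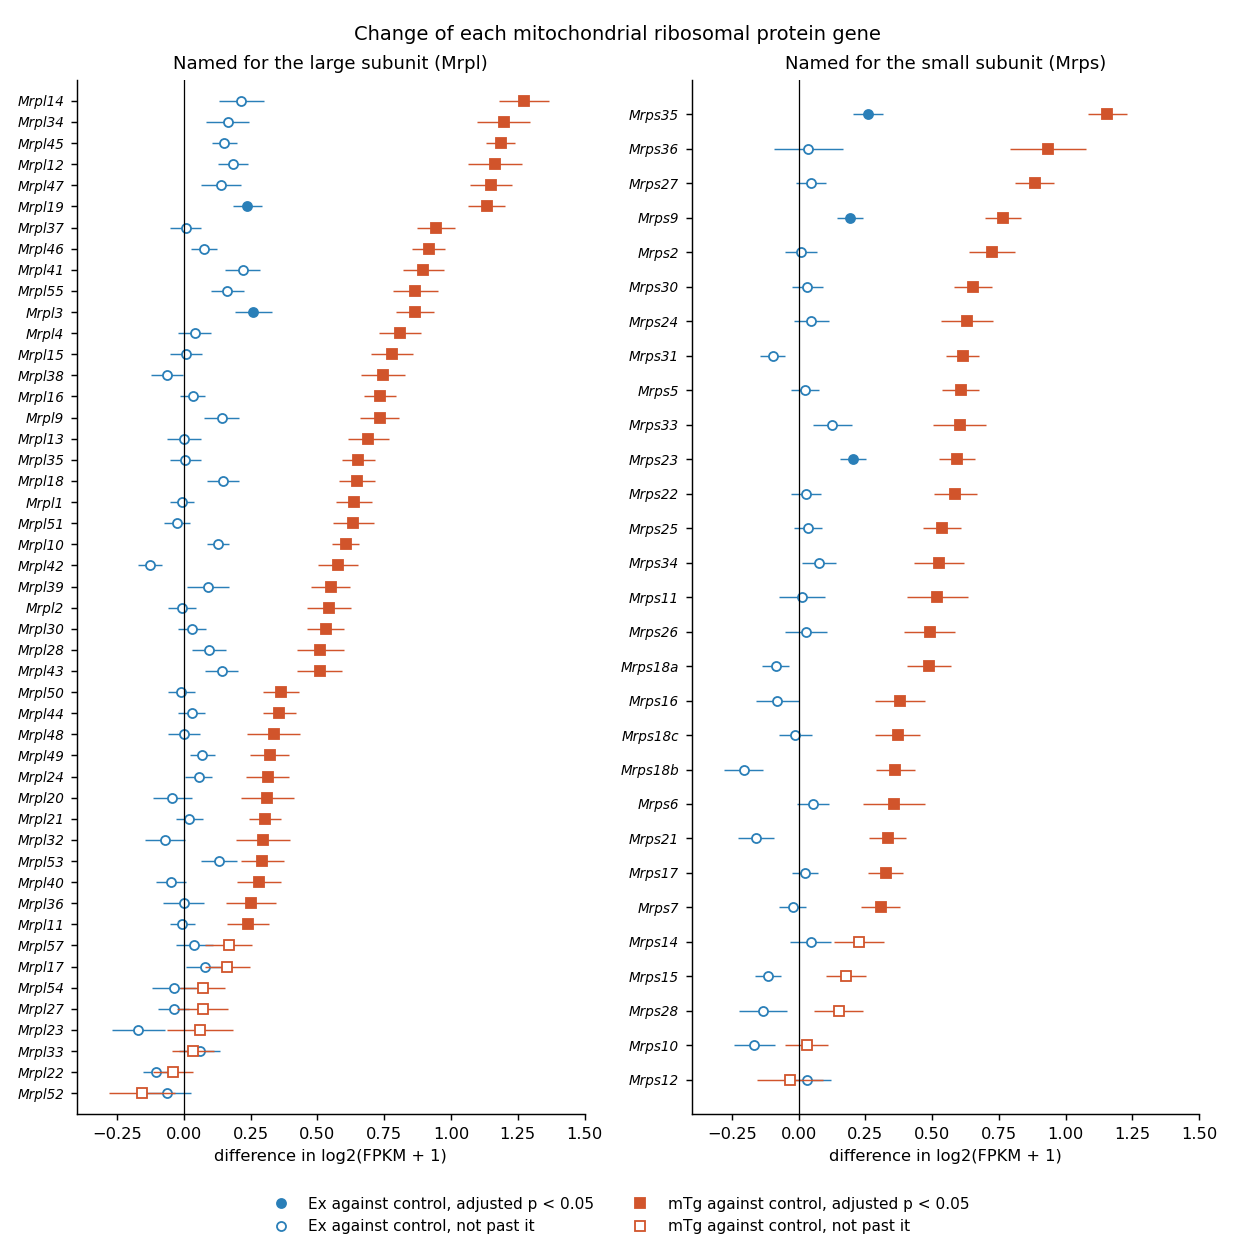
Difference in log2(FPKM + 1) from control for each of the 77 members in Ex (circles) and mTg (squares), with SEs, ordered by the mTg difference within the genes named for each subunit. Filled symbols have an adjusted p under 0.05. In mTg 64 members are filled and all lie right of 0, from 0.24 to 1.27. In Ex 5 are filled, between 0.19 and 0.26.

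Large and small subunits were set side by side to see whether they moved to the same extent. By structure, 42 of 50 large-subunit genes (84.0%) and 21 of 26 small-subunit genes (80.8%) were called higher in mTg, with median log2 differences of 0.55 and 0.51. By name the counts were 40 of 48 for *Mrpl* and 24 of 29 for *Mrps* genes. The upper quartile was 0.77 in the large subunit and 0.61 in the small one. The summed level of large-subunit genes over that of small-subunit genes was 2.89, 2.91, 2.93, 2.92 and 2.90 in the mTg libraries, against 2.54, 2.63, 2.54, 2.52 and 2.56 in the control libraries. Every mTg ratio lay above every control ratio. Without the 5 most abundant members the ratios ran from 2.33 to 2.39 in mTg and from 2.04 to 2.15 in control, again without overlap. The median large-subunit level over the median small-subunit level ran from 1.21 to 1.36 in mTg and from 1.23 to 1.44 in control, so that the separation of the sums was not seen in the middle of the lists. Within the small subunit all 10 genes of mitochondrial lineage were called and 11 of the 16 of bacterial lineage, with medians of 0.59 and 0.35. In the large subunit the shares were 17 of 20 and 25 of 30, with medians of 0.50 and 0.62.

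Ex muscle was compared with control to see whether weeks of running left a mark on the same mRNAs. Few members passed the test, and the differences were small. In all, 5 members were higher in Ex and none was lower by limma, which is 6.49% of the members against 5.39% of all tested genes higher and 5.02% lower, a share near the background. At an unadjusted p under 0.05, 14 members were higher and 6 lower, where 1454 and 1656 of the 11674 tested genes were. Limma voom called 6 members higher and none lower, where 648 tested genes were called higher and 568 lower. The median difference was 0.03, where the median tested gene differed by -0.01. All Ex libraries lay above all control libraries in 5 members, against 4.92% of tested genes. Summed over the members, Ex had 2991, 3108, 3022, 2997 and 3180.1 FPKM and control 3006, 2823, 2886, 3095 and 3291 FPKM, with full overlap. As a share of the reads, members took 0.331%, 0.326%, 0.328%, 0.336% and 0.337% in Ex, against 0.304%, 0.298%, 0.291%, 0.307% and 0.327% in control. Here 4 of 5 Ex libraries lay above every control, and Ex replicate 2 lay just below control replicate 5. All listed genes together summed to 422128 to 450550 FPKM in Ex and 438879 to 486965 FPKM in control.

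*Mrps35*, the small-subunit head protein, was called with the largest difference. It had 19.2, 18.2, 19.7, 18.4 and 15.99 FPKM in Ex, against 15.4, 14.8, 14.2, 15.3 and 15.7 FPKM in control (0.26 ± 0.06 (SE), adjusted p = 0.0147), and the lowest Ex library lay just above the highest control. *Mrpl3*, a core protein near the peptidyl transferase centre, had 33.7, 37.3, 35.04, 32.8 and 36.7 FPKM in Ex, against 29.2, 26.2, 27.7, 28.5 and 34.6 FPKM in control (0.26 ± 0.07 (SE), adjusted p = 0.0347). Control replicate 5 reached into the Ex range. *Mrpl19* had 5.27, 5.48, 5.65, 6.14 and 5.40 FPKM in Ex, against 4.92, 4.44, 4.69, 4.54 and 4.35 FPKM in control (0.24 ± 0.05 (SE), adjusted p = 0.017), without overlap. *Mrps23*, a small-subunit protein of the mitochondrial lineage, had 63.9, 62.3, 59.4, 60.03 and 60.8 FPKM in Ex, against 57.2, 49.4, 50.3, 53.6 and 54.9 FPKM in control (0.21 ± 0.05 (SE), adjusted p = 0.0207). *Mrps9*, the counterpart of bacterial S9, had 27.3, 26.6, 28.1, 26.6 and 29.2 FPKM in Ex, against 23.9, 23.1, 22.6, 26.2 and 24.2 FPKM in control (0.19 ± 0.05 (SE), adjusted p = 0.0301). Both kept the groups apart by a narrow margin. These 5 genes were also called higher in mTg, as were 64 of all 77 members (83.1%), and the 2 comparisons share their control libraries. Over 18 alternatives, *Mrps35* and *Mrpl19* kept their call in every one, with adjusted p up to 0.0429 and 0.0459 in limma. *Mrps23* lost it once, without control replicate 3 (adjusted p from 0.00187 to 0.0570 over the alternatives). *Mrps9* lost it in 8 alternatives, 6 of which left out a library, and *Mrpl3* when any of 8 libraries was left out (adjusted p up to 0.0768 and 0.0822).

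The count in Ex rested on single control libraries and on the scaling. In control replicate 5, 72 of 77 members lay above the control mean, and the summed FPKM of all listed genes was the highest among the controls (486965 FPKM). Without this library 13 members were called higher (5.99% of all tested genes were). Without control replicate 3 there were 2, and without control replicate 1, control replicate 2 or Ex replicate 3 there were 3 each. After rescaling each library to TPM, which makes its values sum to a constant, 17 members were higher (10.5% of all tested genes were) and the median of all tested genes moved to 0.08. Among the 12 added were *Mrpl12*, *Mrpl14*, *Mrpl34* and *Mrpl45*. *Mrpl42*, the most abundant member, had 248, 259, 258, 263 and 276 FPKM in Ex, against 295, 279, 269, 295 and 287 FPKM in control, a difference of -0.13 that did not pass the test (adjusted p = 0.0938).

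**Figure D3:**
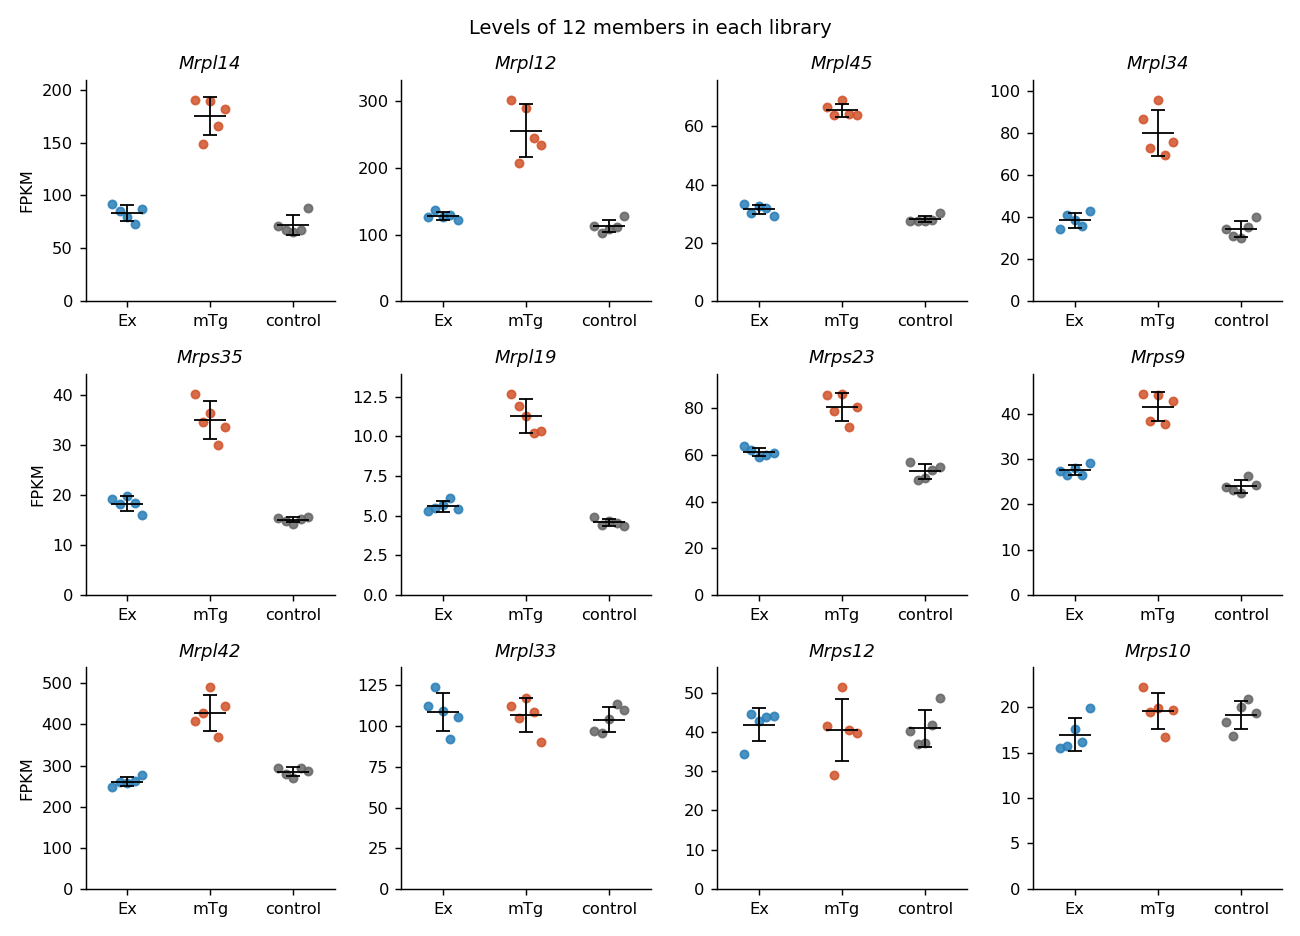
FPKM of 12 members in each library of Ex, mTg and control, with means (horizontal marks) and SDs (bars, n = 5 each). All axes start at 0. In the upper 8 panels every mTg library lies above every control library. *Mrpl33*, *Mrps12* and *Mrps10* overlap in all groups.

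Ex and mTg were also compared with each other in their own fit. By limma, 65 of 77 members were lower in Ex than in mTg (84.4%, against 20.7% of all tested genes lower and 20.7% higher), and none was higher, with none at an unadjusted p under 0.05 and none by limma voom. The median log2 difference was -0.50, against 0.02 for all tested genes. All Ex libraries lay below all mTg libraries in 56 members, against 14.9% of tested genes. Of the 64 members called in mTg against control, 63 were called here. The 2 comparisons share their mTg libraries and Ex members lay near control, so this overlap is not a separate result. The largest difference was that of *Mrpl14*, with 92.4, 85.3, 79.6, 73.3 and 86.8 FPKM in Ex and 190.4, 149, 189, 165 and 181 FPKM in mTg (-1.06 ± 0.08 (SE), adjusted p = 3.38e-07). *Mrpl45* averaged 31.5 ± 1.66 FPKM in Ex and 65.4 ± 2.33 FPKM in mTg (adjusted p = 2.16e-08). The 5 genes called in Ex still differed, with *Mrps35* at -0.90 ± 0.08 (SE) and *Mrps23*, the closest of them, at -0.39 ± 0.06 (SE). The large-over-small ratio was 2.64, 2.69, 2.61, 2.66 and 2.62 in the Ex libraries, below all mTg ratios and partly within the control range.

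Genes that work with the ribosome were read as fixed lists, described by counts and medians only. Of 6 further ribosome proteins without an *Mrp* name, 5 rose in mTg (median 0.58, against 22.3% of all tested genes called higher) and 1 in Ex (against 5.39%). *Ptcd3*, a small-subunit protein, averaged 51.2 ± 5.57 FPKM in mTg and 25.5 ± 1.11 FPKM in control (SD, n = 5 each, log2 difference 0.97, adjusted p = 2.71e-07). It was the 1 called in Ex, where it averaged 30.2 ± 1.01 FPKM (adjusted p = 0.00711). *Dap3*, a GTP-binding small-subunit protein, averaged 24.7 ± 2.43 FPKM in mTg and 12.9 ± 0.388 FPKM in control (SD, n = 5 each, log2 difference 0.88, adjusted p = 3.85e-07). Among 25 assembly and rRNA-modifying factors, 14 rose in mTg (56.0%, against 22.3% of all tested genes, median 0.29) and none fell (against 23.1%), with none lower at an unadjusted p under 0.05 or by limma voom. *Mrm1* and *Rnmtl1*, methyltransferases that modify the large rRNA, led this list. *Mrm1* averaged 12.2 ± 1.18 FPKM in mTg and 4.15 ± 0.586 FPKM in control (SD, n = 5 each, log2 difference 1.36, adjusted p = 7.57e-08), and *Rnmtl1* averaged 19.6 ± 1.44 FPKM in mTg and 8.02 ± 0.899 FPKM in control (SD, n = 5 each, log2 difference 1.19, adjusted p = 7.57e-08). In Ex 1 of 25 was called higher, a share below the background of 5.39%. This was *Mettl15*, a methyltransferase of the small rRNA, which averaged 3.47 ± 0.376 FPKM in Ex and 2.21 ± 0.214 FPKM in control (SD, n = 5 each, log2 difference 0.47, adjusted p = 0.00209).

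Mitochondrial translation factors rose in mTg in most cases, with 15 of 18 higher (83.3%, against 22.3% of all tested genes) and a median of 0.55. *Qrsl1*, a subunit of the amidotransferase that makes glutaminyl-tRNA, averaged 31.8 ± 1.08 FPKM in mTg and 12.6 ± 1.44 FPKM in control (SD, n = 5 each, log2 difference 1.28, adjusted p = 2.97e-08). *Gfm1*, the elongation factor that moves the ribosome along the mRNA, averaged 123 ± 10.1 FPKM in mTg and 57.4 ± 0.443 FPKM in control (SD, n = 5 each, log2 difference 1.08, adjusted p = 2.97e-08). *Tufm*, which delivers aminoacyl-tRNA, averaged 91.7 ± 5.65 FPKM in mTg and 42.7 ± 2.02 FPKM in control (SD, n = 5 each, log2 difference 1.08, adjusted p = 2.36e-08). *Taco1*, a translational activator of the cytochrome c oxidase subunit I mRNA, averaged 88.3 ± 8.66 FPKM in mTg and 41.2 ± 2.59 FPKM in control (SD, n = 5 each, log2 difference 1.08, adjusted p = 1.24e-07). In Ex 2 of 18 factors were called higher (11.1%, against 5.39% of all tested genes) and 1 lower (5.56%, against 5.02%), which is 3 genes in all. *Tsfm*, the exchange factor for *Tufm*, averaged 15.8 ± 1.42 FPKM in Ex and 12.5 ± 1.65 FPKM in control (SD, n = 5 each, log2 difference 0.32, adjusted p = 0.0386). *Mtif2*, the initiation factor, averaged 12.9 ± 0.735 FPKM in Ex and 11.3 ± 0.493 FPKM in control (SD, n = 5 each, log2 difference 0.18, adjusted p = 0.048). *Gatc*, another amidotransferase subunit, averaged 19.7 ± 0.964 FPKM in Ex and 22.2 ± 0.635 FPKM in control (SD, n = 5 each, log2 difference -0.17, adjusted p = 0.0392). With rescaling to TPM, 7 of 18 factors were called higher in Ex (38.9%, against 10.5% of all tested genes). None was then called lower, *Gatc* included, so these Ex counts depend on the scaling.

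The 2 larger lists give scale. All 37 genes with an *Nduf* name and a subunit letter rose in mTg (against 22.3% of all tested genes), with a median of 0.95. Nearly all of them encode subunits of complex I, the respiratory complex with the most mitochondrially encoded parts. *Ndufa4* is the exception, as a subunit of cytochrome c oxidase, and *Ndufa4l2* is its paralog. *Ndufb10* averaged 949.8 ± 102 FPKM in mTg and 370.4 ± 30.4 FPKM in control (SD, n = 5 each, log2 difference 1.35, adjusted p = 5.28e-08). In Ex 3 of 37 rose (8.11%, against 5.39% of all tested genes), led by *Ndufb3*, which averaged 192 ± 4.90 FPKM in Ex and 148 ± 9.21 FPKM in control (SD, n = 5 each, log2 difference 0.38, adjusted p = 7.49e-04). With rescaling to TPM, 14 of 37 were called higher in Ex (37.8%, against 10.5% of all tested genes), so this count depends on the scaling. The 75 cytosolic ribosomal protein genes went the other way in mTg, with 36 lower (48.0%, against 23.1% of all tested genes) and 1 higher, and a median of -0.22. *Rps20* averaged 174 ± 27.5 FPKM in mTg and 264 ± 27.3 FPKM in control (SD, n = 5 each, log2 difference -0.61, adjusted p = 3.86e-04). In Ex 7 were lower (9.33%, against 5.02% of all tested genes) and none higher (1 higher at an unadjusted p under 0.05, none by limma voom), with a median of -0.10. After rescaling to TPM this Ex median was -0.0080, with 3 called higher (where 10.5% of all tested genes were) and none lower, so the direction in Ex depends on the scaling. In mTg it was -0.20 with 37 lower.

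**Figure D4:**
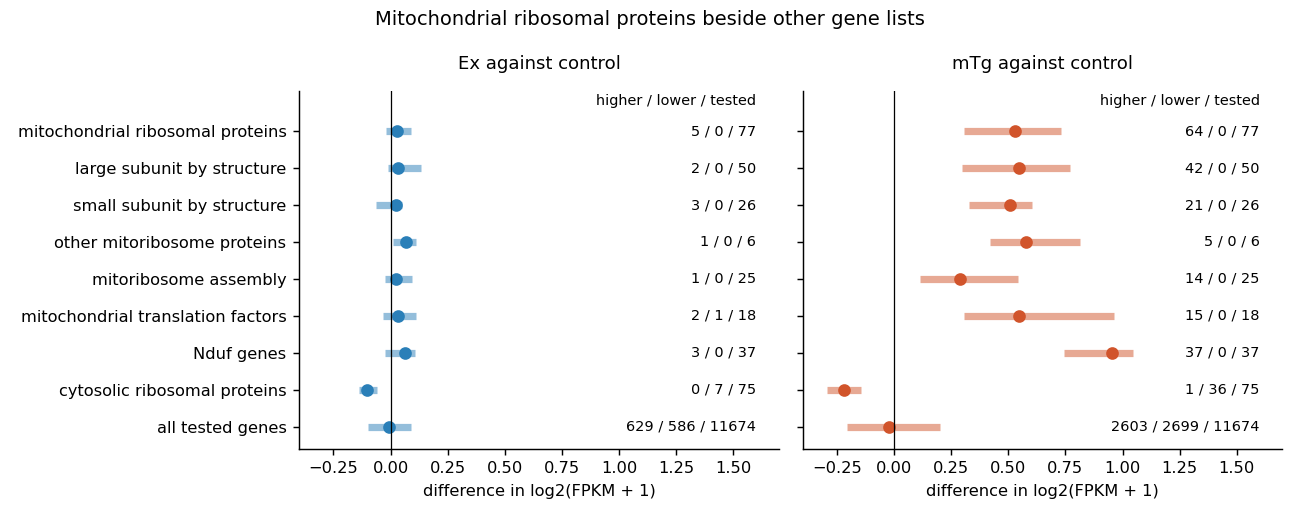
Median (point) and quartiles (bar) of the difference in log2(FPKM + 1) from control for the members, their subunits by structure, related lists and all tested genes, in Ex (left) and mTg (right). Numbers give the genes called higher, called lower and tested. In mTg the members sit at a median of 0.53, *Nduf* genes at 0.95 and cytosolic ribosomal proteins at -0.22, while in Ex the members sit at 0.03.

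Many members share their promoter region with a gene on the other strand. In 18 of 77 (23.4%) another protein-coding gene started within 1000 bases upstream on the opposite strand, against 10.4% of 10987 tested genes with a single annotated model. The start sites lay 26 to 935 bases apart (median 82). Of 16 such neighbours that could be tested, 8 were higher in mTg, 3 lower and 5 not called (22.3% of all tested genes were higher and 23.1% lower), with a median log2 difference of 0.21, against 0.45 for the 16 members beside them. *Ptcd2*, which starts 81 bases from *Mrps27*, averaged 44.1 FPKM in mTg and 19.95 FPKM in control, and *Mrps27* itself 41.2 ± 3.59 FPKM in mTg and 21.8 ± 1.55 FPKM in control. The pair of *Mrps12* and *Sars2*, a mitochondrial tRNA synthetase, start 172 bases apart. *Sars2* averaged 10.5 FPKM in mTg and 8.46 FPKM in control (adjusted p = 0.00906), where *Mrps12* was not called. *Pnpla7* beside *Mrpl41* was lower in mTg (11.3 FPKM in mTg and 14.7 FPKM in control, adjusted p = 0.00308), while *Mrpl41* averaged 15.4 ± 1.48 FPKM in mTg and 7.81 ± 0.55 FPKM in control. These 3 pairs were chosen after their values were seen.

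Promoter cores were also counted by the call in mTg, with only 11 members not called among those with a window and no test of the difference. The ETS core stood in 18 of 57 members called higher (31.6%) and in 7 of 11 not called (63.6%), and the NRF1 core in 5 of 57 (8.77%) and 3 of 11 (27.3%). YY1 cores were in 11 of 57 (19.3%) and 2 of 11 (18.2%), ERR cores in 3 of 57 (5.26%) and 1 of 11 (9.09%). In the windows printed above, *Mrpl14* changed most and held no core, and *Mrpl33* held 2 cores and was not called. *Mrpl12* held an ERR core and was 2.24-fold higher in mTg, and *Mrpl3* held an ETS core and was called in both comparisons with control. These windows were chosen by the change of their genes, so they show nothing about a link between cores and change. In 26 members the gene model overlaps another protein-coding gene, mostly on the opposite strand, among them *Mrpl14* with *Tmem63b*, *Mrpl47* with *Ndufb5*, *Mrpl19* with *Gcfc2* and *Mrpl46* with *Mrps11*. The libraries were stranded, but whether the counting used strand is not stated, so reads of such pairs may not be told apart.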

How the data were processed

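Quadriceps polyA RNA was sequenced in 15 libraries from a stranded kit, 5 in each of 3 groups. Per the labels, STAR was the authors' aligner, mm10 their build and DESeq2 their test. The version given with it, 1.1.0, is in the paper that of a BaseSpace application. How reads were counted, and with which annotation, is not stated. The deposited values are FPKM per gene in a table of all samples. Tables of the authors' own comparisons hold the same values for Ex, while 4 of the 5 control columns beside mTg differ by a constant factor per library. Their fold changes and p-values were not used. FPKM steps gave whole reads for all 12529 genes (within 0.01 read), which set the depths and served limma voom.

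FPKM plus a pseudocount of 1 was log2-transformed, a filter removed genes averaging under 0.5 FPKM (11674 genes stayed, all 77 members among them), and limma 3.58.1 (R 4.3.3, trend) was fitted to the 10 libraries of each pair of groups without covariates. Differences and folds refer to log2(FPKM + 1) and so understate the change of low genes. P-values were adjusted by Benjamini-Hochberg over all tested genes, with a threshold of 0.05. The fit was tested on simulated data. Genes named in the text are, in each comparison, the 10 called members with the largest difference, those called in the rarer direction, the 5 highest and 3 lowest members, *Mrps30*, *Mrps18a*, *Mrps36*, the 3 nearest to no difference in mTg, and up to 4 called genes per list. Alternatives were TPM, median-of-ratios scaling, a pseudocount of 0.1, no filter, a mean of at least 1 FPKM, all 15 libraries in 1 fit, limma voom, a replicate block and leaving out each library. The members, lists, motifs and tests were chosen with earlier results of these data known. Promoters are RefSeq windows and gene models GENCODE M21 (Python 3.11.15, pandas 2.3.3).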

Additional observations from a re-analysis of the deposited data

Results flagged for a closer look

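Among the named members, the summed levels, the large-over-small ratio and *Ppargc1a*, 84 groups of 5 libraries were examined for a library that stood apart from the other 4 by Dixon's criterion (a gap above 0.71 of the group's range), and 5 were found. Chance gives about 1 in 20 groups. In control replicate 5, *Mrpl14* was at 88.2 FPKM, against 65.2 to 71.5 FPKM in the other controls, and *Mrpl45* at 30.2 FPKM, against 27.6 to 27.8 FPKM. *Mrpl30* was at 228 FPKM in mTg replicate 3, against 188 to 191 FPKM in the other mTg libraries. In Ex, *Mrps30* reached 21.1 FPKM in replicate 5, against 17.5 to 18.5 FPKM, and *Mrps12* was low in replicate 1 with 34.3 FPKM, against 42.8 to 44.6 FPKM in the others.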

How the results depend on the processing

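The count of members called in mTg against control stayed between 60 and 66 of 77 under all alternatives, 59 genes being called in each of them, and that of Ex against mTg between 62 and 66, with 62 shared. In Ex against control the count was 17 after rescaling to TPM and 4 to 6 under the other settings on all libraries, and only *Mrps35* and *Mrpl19* were called in every alternative. Rescaling to TPM moved the median of the members to 0.12 in Ex against control and to -0.43 in Ex against mTg. With each library left out in turn, the Ex against control count ran from 2 to 13 and its median from 0.0082 to 0.054, with 1 called member lower without Ex replicate 5 (*Mrps18b*). The mTg against control median ran from 0.50 to 0.57 and that of Ex against mTg from -0.51 to -0.46. The deviations of libraries with the same number were only weakly correlated (from -0.22 to 0.19 over the 3 comparisons). The labels do not say whether the numbers pair the libraries, and such correlations cannot settle it. The replicate block gave 4 members in Ex, 62 in mTg and 64 in Ex against mTg. No named member changed direction where it was called. Over 18 alternatives for each of the 23 named members, a call was lost 17 times and gained 9 times in Ex against control, gained once in mTg against control and gained 2 times in Ex against mTg. The causes were not tested. Members had at least 73 reads per library, so depth limits *Mrps36* most.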

Other observations

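Members varied together between libraries of 1 group. In control replicate 5, 72 of 77 members lay above their control mean, in replicate 4 it was 55, in replicate 1 30, in replicate 3 14 and in replicate 2 only 6. All listed genes together took the same order, with 486965, 480381, 463274, 460246 and 438879 FPKM in these libraries. That order is therefore not particular to the members, but their share of the reads differed between these libraries as well. As a share of the reads, members took 0.327% in control replicate 5 and 0.291% to 0.307% in the other controls. In the mTg group the summed level was 4977 FPKM in replicate 3 and 4711 FPKM in replicate 1, against 4161 to 4402 FPKM in the other 3. All listed genes together summed to 473317 FPKM in mTg replicate 3 and 490791 FPKM in mTg replicate 1, against 438542 to 445522 FPKM in the others. *Ppargc1a* was at 52.1 and 50.1 FPKM in those 2 libraries, against 53.8 to 56.8 FPKM in the others. The 2 libraries with the highest ribosomal sums thus had the lowest *Ppargc1a*, but the share of the reads did not keep this order. Members took 0.555% of the reads in mTg replicate 3 and 0.491% in mTg replicate 1. The share was 0.464%, 0.483% and 0.495% in mTg replicates 2, 4 and 5, and mTg replicate 5 had 56.4 FPKM of *Ppargc1a*. With 5 libraries this is given as values, without a test.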
